A study of Mus musculus with 45 samples.

Results

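The genes described here are 6 components of the Wnt signalling pathway, chosen by gene symbol: the ligand Wnt7b, the receptor Fzd7, the co-receptor Lrp6, the transducer Ctnnb1 (beta-catenin), the feedback inhibitor Axin2 and the DNA-binding factor Tcf7l1. All 6 were in each of 3 expression tables, which held 15997 genes between them. The tables come from untreated mouse embryos of embryonic day E5.25, day E5.5 or day E5.75, frozen, cut into numbered sections and collected by laser capture microdissection, with low-input RNA-seq by the Smart-seq2 protocol. Samples in the labels number 7 for E5.25, 17 for E5.5 and 21 for E5.75, and the tables hold 7, 10 and 19 columns. Their section numbers were 1 to 4 and 6 to 8 at E5.25, 1, 2 and 4 to 11 at E5.5, and 1 to 8, 10 to 12 and 14 to 19 at E5.75. At E5.75, 2 further libraries, from sections 6 and 7, carry the label VE (visceral endoderm, the layer around the embryo). Samples without a column, such as E5.75 sections 9 and 13, were not analysed here. The labels give no strain or genotype and no number of embryos. Sections are positions along an axis and not replicates of a condition, so each p-value weighs a pattern along the axis against the scatter of single sections around it, which may be technical.

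In canonical Wnt signalling, a secreted Wnt ligand binds a Frizzled receptor together with Lrp5 or Lrp6, and beta-catenin is then spared from the destruction complex that Axin scaffolds with Apc and Gsk3. Stabilised beta-catenin enters the nucleus and turns TCF/LEF factors from repressors into activators, and Axin2 is among the genes switched on in many tissues. In the early post-implantation embryo the pathway is known for its part in forming the primitive streak, and Tcf7l1 is known as a repressor that limits it in pluripotent cells.

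On the GRCm38 build, in the GENCODE vM21 annotation, the whole genes lie at chr15:85535437-85582473 on the minus strand (Wnt7b), chr1:59482424-59486955 on the plus strand (Fzd7) and chr6:134446476-134566965 on the minus strand (Lrp6). Ctnnb1 lies at chr9:120929216-120960507 and Axin2 at chr11:108920349-108950783, both on the plus strand, and Tcf7l1 at chr6:72626378-72789254 on the minus strand. Values are per gene, and the exons they cover are not given in the sources used here. RefSeq promoter windows of GRCm38.p6 were found for 4 of the members, Fzd7, Ctnnb1, Axin2 and Tcf7l1. The windows of Fzd7, a member that differed along the E5.75 axis, and of Axin2, the member known as a direct Wnt target, are shown for the 250 bases before the start site (chr1:59481897-59482146 and chr11:108920099-108920348, both plus strand). Capitals mark CpG dinucleotides.
Fzd7: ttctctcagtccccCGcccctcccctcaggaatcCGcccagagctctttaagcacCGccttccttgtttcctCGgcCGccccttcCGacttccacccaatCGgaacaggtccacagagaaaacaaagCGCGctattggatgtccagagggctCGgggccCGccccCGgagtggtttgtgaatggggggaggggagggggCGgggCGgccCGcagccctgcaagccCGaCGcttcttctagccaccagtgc
Axin2: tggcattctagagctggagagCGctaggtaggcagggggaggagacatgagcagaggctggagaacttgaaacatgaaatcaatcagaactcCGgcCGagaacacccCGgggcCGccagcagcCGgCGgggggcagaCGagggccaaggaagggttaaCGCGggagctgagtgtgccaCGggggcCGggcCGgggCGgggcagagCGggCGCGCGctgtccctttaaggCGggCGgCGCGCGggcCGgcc
The Fzd7 stretch holds 17 CpG dinucleotides and the Axin2 stretch 24, beside a median of 6 over 32851 promoter windows. Of all windows, 76.5% hold fewer than the Fzd7 stretch and 88.0% fewer than the Axin2 stretch. The core sequence that TCF/LEF factors bind was searched as CTTTGAT and as CTTTGAA on both strands of the windows of 300 bases. Neither was found in the windows of these 4 members, and 8.65% of all windows hold at least 1 of the pair.

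Values are on the deposited log2(FPKM + 1) scale, where FPKM is fragments per kilobase of transcript per a fixed number of mapped fragments. A value of 0 means that a gene was listed at 0. The 3 tables were normalised separately, so levels were not tested between stages. Libraries differed in how much they detected: genes with an FPKM of at least 1 numbered 2046 to 6461 in E5.25 sections, 2288 to 6467 at E5.5 and 3211 to 8217 in E5.75 sections, with 1496 and 2147 in the VE libraries. Detection was lowest in the low-numbered sections at every stage. Across all genes tested, the median fitted change from the lowest to the highest section was 1.45 for E5.25, 1.22 for E5.5 and 0.80 for E5.75, and quantile normalisation moved these medians to -0.04, -0.09 and -0.03. A rise of about that size along the axis is therefore the background against which the members are read. At E5.75, Pou5f1, an epiblast transcription factor, was at 6.17 to 7.53 in sections 2 to 8, and Tfap2c, a trophoblast transcription factor, was at 5.83 to 7.91 in sections 10 to 19 and at most 1.26 before. By these markers sections 2 to 8 are the embryonic side and sections 10 to 19 the extraembryonic side; section 1 had neither, and it is counted with sections 2 to 8 by its position where sides are compared.

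The ligand Wnt7b separated the E5.75 embryo into these sides. It was listed at 0 in sections 1 to 7 and was at 0.89 in section 8. It reached 4.38, 5.0 and 4.67 in sections 10, 11 and 12. In sections 14 to 19 it was at 5.13, 4.83, 4.49, 4.74, 3.87 and 3.21. The lowest of sections 10 to 19 thus lay above each of sections 1 to 8, with no overlap, and the value in section 8 was the only one above 0 before the boundary. The mean was 0.11 ± 0.31 (SD, n = 8 sections) in sections 1 to 8 and 4.48 ± 0.60 (SD, n = 9) in sections 10 to 19. The share of all genes without overlap between the sides was not counted, here or for the other genes below.

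The fitted difference for Wnt7b, sections 10 to 19 minus 1 to 8, was 4.37 ± 0.37 (SE; 95% confidence interval 3.60 to 5.13; limma, Benjamini-Hochberg adjusted p = 1.93e-08). In this comparison 12.5% of 11149 genes were called at an adjusted p below 0.05, 1163 higher and 234 lower on the extraembryonic side, with a median difference of 0.45 over all genes. Quantile normalisation turned that split to 492 higher and 526 lower with a median of 0.0017. Of the 6 members, 2 were called, Wnt7b higher and Fzd7 lower on the extraembryonic side. Both kept their call in all 23 alternatives, in which the Wnt7b difference ran from 2.38 to 7.33. Genes entered the test with an FPKM of 1 or more in 2 or more sections, a filter that Wnt7b passed through sections 10 to 19 alone. The direction of Wnt7b is therefore not independent of the filter. Its call without the filter is among those alternatives, and it rests on the same values. Decidual genes were also more abundant there: the 6 listed summed to between 3.03 and 309 FPKM in sections 10 to 19 and to at most 13.9 FPKM before, with 1 to 5 of 6 above 0. The sum was highest in section 19, where Wnt7b was lowest on that side. Visceral endoderm genes summed to between 0 and 137 FPKM in sections 10 to 19 and to between 1.10 and 184 FPKM in sections 1 to 8. In sections 18 and 19, where 0 of the 12 visceral endoderm genes were above 0, Wnt7b was at 3.87 and 3.21. The parts of decidual tissue and of visceral endoderm in the Wnt7b values were not tested. In bulk tissue, more cells that make a transcript and more transcript per cell cannot be told apart.

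**Figure D1:**
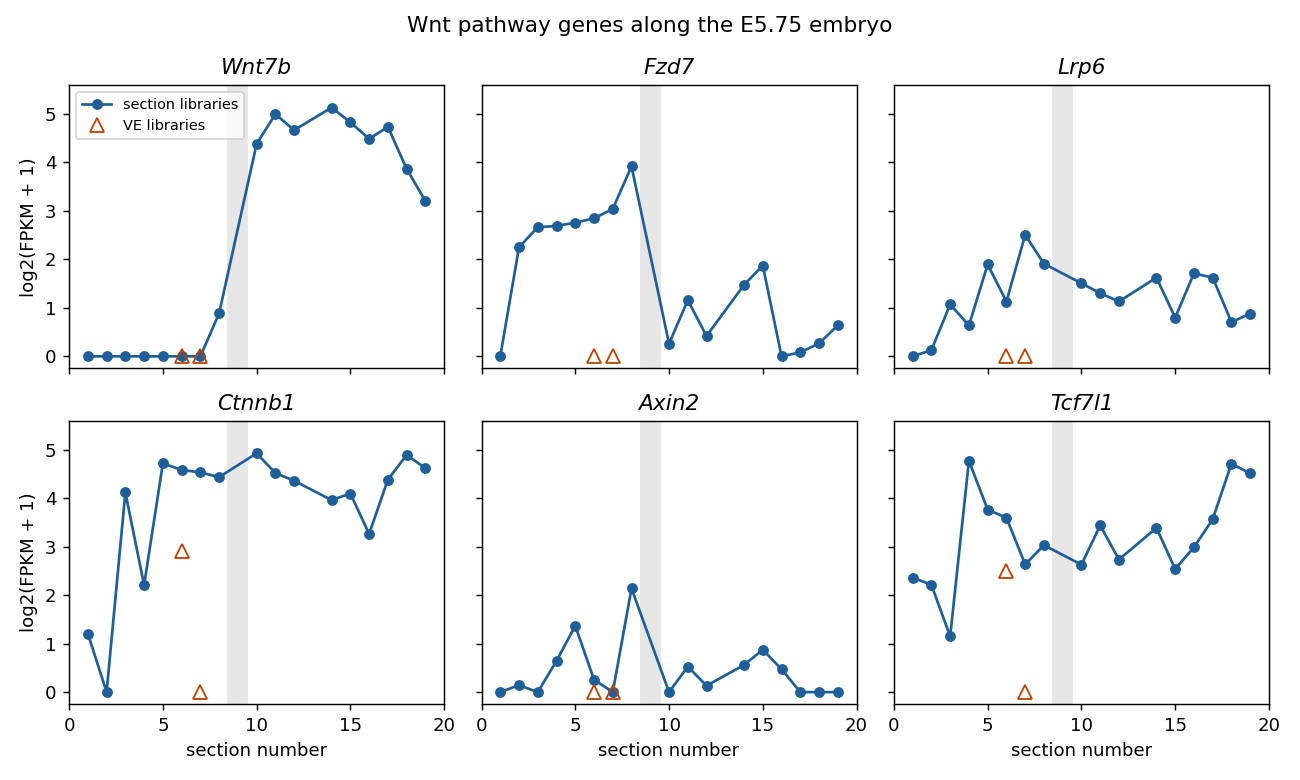
Level of each Wnt pathway gene, log2(FPKM + 1), by section number at E5.75. Filled points are section libraries, open triangles the 2 VE libraries, and the grey band the place of section 9, a sample without a column. Wnt7b is at 3.21 or more in every section after the band, and Fzd7 is at 2.25 or more in sections 2 to 8.

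Fzd7, a Frizzled receptor, had the opposite pattern. It was listed at 0 in section 1 and was at 2.25, 2.67, 2.69 and 2.76 in sections 2 to 5. It was at 2.85, 3.04 and 3.92 in sections 6, 7 and 8. Beyond the boundary it was at 0.26, 1.16 and 0.42 in sections 10 to 12, and at 1.48, 1.87, 0, 0.08, 0.27 and 0.64 in sections 14 to 19. Sections 2 to 8 did not overlap with sections 10 to 19, and section 1, the E5.75 section with the fewest genes detected, was at the floor. The share of all genes without such overlap was not counted. The highest value was in section 8, the last section before the boundary.

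The mean of Fzd7 was 2.52 ± 1.13 (SD, n = 8) in sections 1 to 8 and 0.69 ± 0.66 (SD, n = 9) in sections 10 to 19. The difference was -1.84 ± 0.46 (SE; 95% confidence interval -2.80 to -0.88; limma, adjusted p = 0.0115), against a median of 0.45 over all genes. Over its alternatives the adjusted p reached at most 0.0449. Across the 17 sections the Pearson correlation between Wnt7b and Fzd7 was -0.66, and -0.82 without sections 1 and 2. These points share libraries and detection, and the correlation is a description only.

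**Figure D2:**
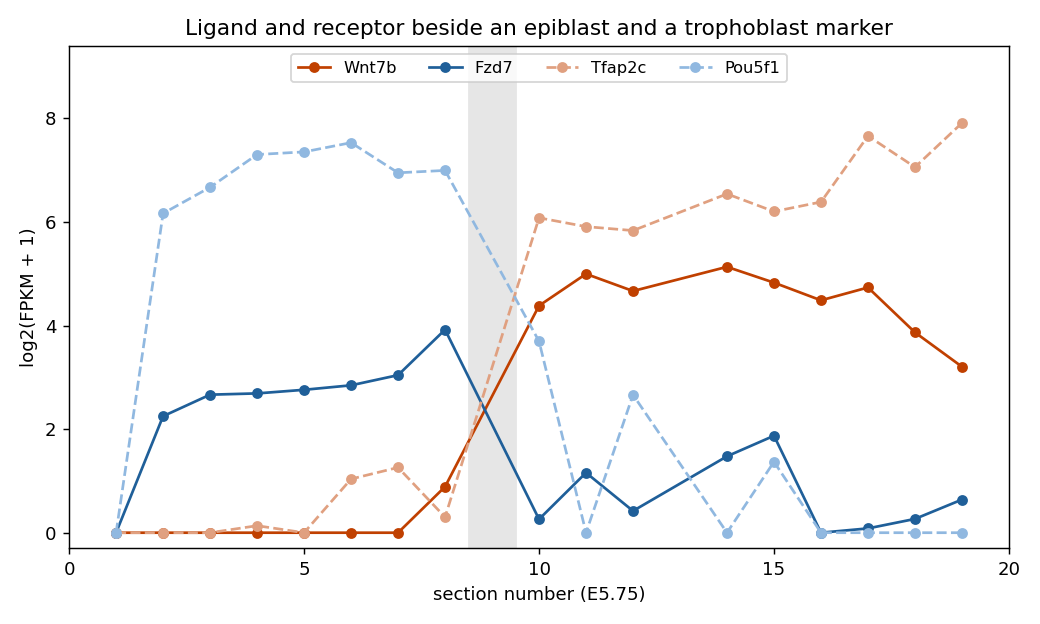
Levels of Wnt7b and Fzd7 (solid lines) beside the trophoblast gene Tfap2c and the epiblast gene Pou5f1 (dashed lines) by E5.75 section, in log2(FPKM + 1). Wnt7b and Tfap2c are high from section 10 on, and Fzd7 and Pou5f1 are high from section 2 to section 8.

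Lrp6, the single-pass co-receptor for Wnt ligands, was low on both sides at E5.75. It was at 0, 0.13, 1.07, 0.64, 1.90, 1.13, 2.51 and 1.91 in sections 1 to 8, and from 0.71 to 1.71 (median 1.30) in sections 10 to 19. The groups overlapped, with both the lowest and the highest values in sections 1 to 8. The difference was 0.09 ± 0.38 (SE; 95% confidence interval -0.70 to 0.89; limma, adjusted p = 0.890), an interval that spans both signs. Under quantile normalisation it was -0.65.

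Ctnnb1, which encodes the transducer beta-catenin and also a part of cell junctions, had the highest mean FPKM of the members over all E5.75 sections and in sections 1 to 8, while in sections 10 to 19 Wnt7b stood above it. It was at 1.21 and 0 in sections 1 and 2 and at 4.12, 2.21, 4.72, 4.58, 4.53 and 4.44 in sections 3 to 8. In sections 10 to 19 it ranged from 3.26 to 4.93 (median 4.39). From section 5 on the levels of both sides overlapped, and the low values lay in sections 1, 2 and 4. The difference between the sides was 1.11 ± 0.60 (SE; 95% confidence interval -0.12 to 2.34; limma, adjusted p = 0.214), and it was -0.39 with a detection covariate, the number of genes at an FPKM of 1 or more in each section.

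Axin2, the feedback inhibitor, was at the bottom of the range. In sections 1 to 8 it was at 0, 0.14, 0, 0.64, 1.37, 0.26, 0 and 2.14, and in sections 10 to 19 it ranged from 0 to 0.87 (median 0.13). Its highest value was in section 8, where Fzd7 was also highest. The difference was -0.28 ± 0.30 (SE; 95% confidence interval -0.90 to 0.33; limma, adjusted p = 0.539), and 7 of 17 sections listed it at 0.

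Tcf7l1, the TCF family repressor, was above 0 in all 17 E5.75 sections. It was at 2.36, 2.21, 1.15, 4.77, 3.76, 3.60, 2.63 and 3.03 in sections 1 to 8, and ranged from 2.54 to 4.71 (median 3.39) in sections 10 to 19. High values stood on both sides, in section 4 and in sections 18 and 19, and the groups overlapped. The difference was 0.45 ± 0.49 (SE; 95% confidence interval -0.56 to 1.45; limma, adjusted p = 0.553), and -0.24 under quantile normalisation.

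FPKM corrects for transcript length and allows the members to be ranked, and the order differed between the sides. In sections 1 to 8 the mean level was 14.1 FPKM for Ctnnb1, 8.93 for Tcf7l1, 5.99 for Fzd7, 1.64 for Lrp6, 0.731 for Axin2 and 0.106 for Wnt7b. In sections 10 to 19 it was 22.8 FPKM for Wnt7b, 20.3 for Ctnnb1, 11.1 for Tcf7l1, 1.46 for Lrp6, 0.781 for Fzd7 and 0.248 for Axin2. Wnt7b was thus the last of the 6 before the boundary and the first after it, where its log2 mean of 4.48 ± 0.60 and that of Ctnnb1, 4.34 ± 0.52 (SD, n = 9), lay within either SD. Pooled over the 17 E5.75 sections, which mixes both orders, the mean level was 17.3 FPKM for Ctnnb1, 12.1 for Wnt7b, 10.1 for Tcf7l1, 3.23 for Fzd7, 1.55 for Lrp6 and 0.475 for Axin2. On the log2 scale the means were 3.81 ± 1.39, 2.42 ± 2.30, 3.18 ± 0.95, 1.55 ± 1.29, 1.21 ± 0.66 and 0.42 ± 0.59 in the same order (SD, n = 17 sections). Wnt7b and Tcf7l1 change places between the scales, and on the pooled log2 scale the means of Tcf7l1 and Fzd7, and those of Lrp6 and Axin2, lay farther apart than either SD. The other neighbours in the order differed by less than the larger SD of the pair.

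A straight line over all E5.75 sections called the ligand alone. Wnt7b rose by 5.85 ± 0.92 (SE) from the first to the last section (limma, adjusted p = 0.000141), and it was the only 1 of 6 members called, where 21.0% of genes were called, 2108 up and 231 down. Quantile normalisation turned that split to 698 up and 638 down. Wnt7b passed the filter only through the extraembryonic sections, where it was high, so its direction is not independent of the filter. It kept its call in 23 of 23 alternatives, no filter among them, between 3.09 and 10.2. Fzd7 had a slope of -2.13 ± 0.83 (adjusted p = 0.0671), which passed without section 1 (-2.88, adjusted p = 0.00857) and without both sections of low detection (-3.01, adjusted p = 0.00736). Ctnnb1 had 2.28 ± 0.87 (adjusted p = 0.0631). It passed when section 3, 5, 6 or 16 was left out (adjusted p = 0.0472, 0.0385, 0.0486 and 0.0442), and its sign turned to -0.70 with the detection covariate. The slopes of Lrp6 (0.45 ± 0.60), Axin2 (-0.20 ± 0.47) and Tcf7l1 (1.28 ± 0.72) were not called, with adjusted p of 0.610, 0.794 and 0.201.

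A curve with 3 degrees of freedom, which can follow a bend, changed for 3 of 6 members, where 31.6% of genes were called. These were Wnt7b (limma F test, adjusted p = 6.49e-07), Ctnnb1 (adjusted p = 0.00185) and Fzd7 (adjusted p = 0.0136). The Ctnnb1 call was lost without sections 1 and 2 (adjusted p = 0.334), with the detection covariate (adjusted p = 0.708) and under quantile normalisation (adjusted p = 0.0576). The Fzd7 call was lost with the covariate alone (adjusted p = 0.0621). Wnt7b, which passed the filter only through the extraembryonic sections, was called in each alternative, no filter among them.

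Within each side no member was called, in lines fitted after the values had been seen. Along sections 1 to 8, limma called 0% of 8751 genes, although 2394 had an unadjusted p below 0.05, and 0 of the 5 members tested passed (3 at an unadjusted p below 0.05). The fitted changes were 4.10 ± 1.30 for Ctnnb1 (adjusted p = 0.0797), 2.67 ± 1.11 for Fzd7 (adjusted p = 0.142) and 2.22 ± 0.91 for Lrp6 (adjusted p = 0.139), beside a median of 1.23 over all genes. Without section 3, 453 genes and 1 member, Ctnnb1 (4.64, adjusted p = 0.0471), were called. Along sections 10 to 19, 1.67% of genes and 0 of 5 members were called (1 member at an unadjusted p below 0.05). Wnt7b, lowest in sections 18 and 19, had a fitted change of -1.04 ± 0.56 (95% confidence interval -2.23 to 0.15; adjusted p = 0.407), and Tcf7l1, highest there, one of 1.57 ± 0.66 (adjusted p = 0.263).

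**Figure D3:**
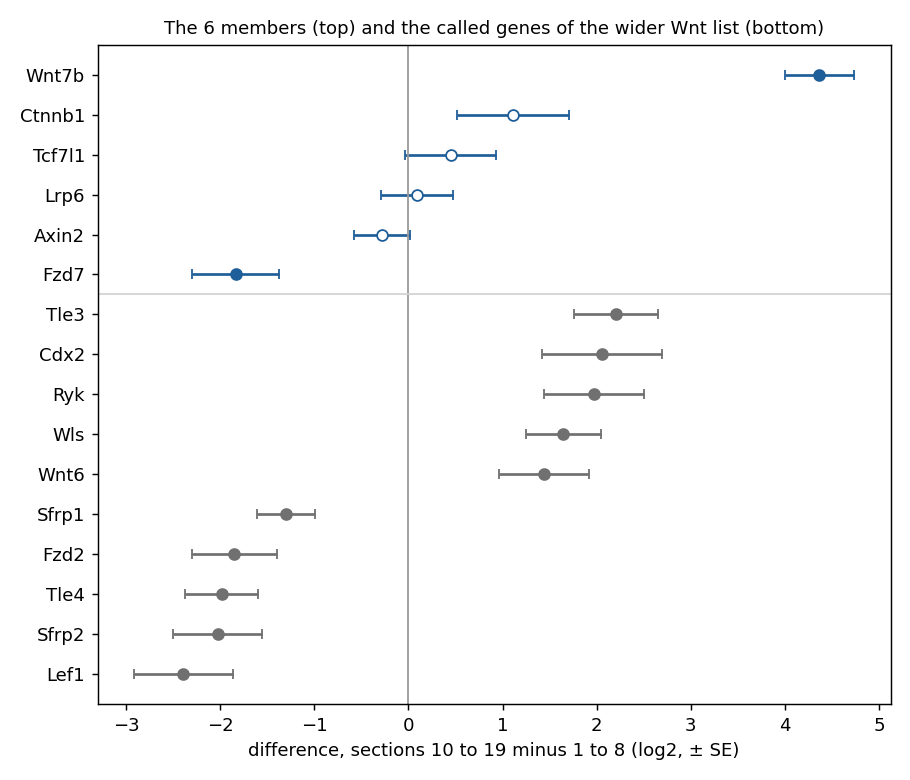
Fitted difference in log2(FPKM + 1), sections 10 to 19 minus sections 1 to 8 at E5.75, with its standard error as bars. Members are in blue at the top, filled where called (Wnt7b at 4.37, Fzd7 at -1.84); the 10 called genes of the wider Wnt list are in grey below.

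In the VE libraries each of the 6 members was listed at 0 at least once. Wnt7b, Fzd7, Lrp6 and Axin2 were listed at 0 in both. Ctnnb1 was at 2.90 and 0, and Tcf7l1 at 2.51 and 0, in the VE libraries of section 6 and section 7. The other libraries of sections 6 and 7 held Fzd7 at 2.85 and 3.04, Ctnnb1 at 4.58 and 4.53 and Tcf7l1 at 3.60 and 2.63. Both VE libraries stood apart: they detected fewer genes than any E5.75 section, and Rn45s, a ribosomal RNA precursor, made up 62.2% and 48.8% of their FPKM. The library labelled VE from section 6 listed Amn and Ttr, defining visceral endoderm genes, at 0, with 5 of 12 visceral endoderm genes above 0. The one from section 7 had Amn at 7.71 and Ttr at 6.44, with 7 of 12 above 0, and Pou5f1 at 6.73.

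Between the 2 VE libraries and the 2 others, 57.2% of 6413 genes were called and 3631 of 3671 calls were lower in VE, with a median difference of -2.09. Quantile normalisation called 0 genes. Fzd7 and Lrp6, at 0 in both VE libraries, passed the filter only through the libraries in which they were higher, so their differences on the log2(FPKM + 1) scale, -2.94 and -1.82, are given as values with no test. Those of Ctnnb1 (-3.11 ± 1.25 SE; limma, adjusted p = 0.128) and Tcf7l1 (-1.86 ± 1.11; adjusted p = 0.266) were not called. The part of low detection in these differences was not tested.

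At E5.5 Wnt7b was again listed at 0 in part of the low-numbered sections and present in all higher ones. Sections 2 to 9 carry the authors' single value for tissue labelled as parts A and B, with no statement of how these were joined. Wnt7b was at 4.55 in section 1, at 0 in sections 2 and 4, and at 1.61 in section 5. It was at 3.06, 3.15, 3.40 and 3.31 in sections 6 to 9, and at 3.17 and 2.39 in the columns numbered 10 and 11. Section 1 was the highest of all and went against the order of the others. That library listed Gapdh, a gene of nearly every cell, and both Pou5f1 and Tfap2c at 0, had 69.8% of its FPKM in Rn45s, and its visceral endoderm genes summed to 599 FPKM, the highest sum of that stage. Its 10 extraembryonic ectoderm genes summed to 61.6 FPKM, with 3 above 0 (Bmp4, Eomes and Elf5), against 0.854 to 17.5 FPKM in sections 2, 4 and 5 and at least 93.3 FPKM from section 6 on. Hoxa10, a decidual gene, was at 5.08 there and at most 1.64 elsewhere, and was the only 1 of 5 decidual genes above 0. The part of these tissues in the Wnt7b value of section 1 was not tested.

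The E5.5 line called 30.9% of 8251 genes, 2332 up and 215 down, and 0 of the 4 members tested by limma, with 0 at an unadjusted p below 0.05. Quantile normalisation turned the split to 578 up and 509 down. Wnt7b had a fitted change of 1.37 ± 1.30 (SE; 95% confidence interval -1.38 to 4.12; limma, adjusted p = 0.421). Without section 1 it rose by 3.67 (adjusted p = 0.0110), and Ctnnb1 rose by 3.21 (adjusted p = 0.0173). With sections 1 and 2 both left out, neither passed.

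The E5.5 level of Ctnnb1 was 3.46 in section 1 and 0.25 in section 2. It was at 2.44, 2.86, 3.35, 4.19, 3.88 and 3.51 in sections 4 to 9, and at 3.83 and 3.87 in columns 10 and 11. Apart from section 1 the lowest values were in sections 2, 4 and 5. With all sections its fitted change was 2.15 ± 1.02 (adjusted p = 0.116).

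Fzd7 at E5.5 was highest in section 4. It was at 0, 0.55, 2.60 and 1.65 in sections 1, 2, 4 and 5, and at 1.08, 0.61, 0.70, 0.74, 0.37 and 0 in sections and columns 6 to 11. Its line gave -0.27 ± 0.80 (95% confidence interval -1.96 to 1.42; limma, adjusted p = 0.809), and the sign turned without section 4 or without section 10. Tcf7l1 was also highest in section 4: it was at 0, 0.50, 3.59 and 2.83 in sections 1, 2, 4 and 5, and at 1.84, 2.25, 3.10, 2.01, 1.95 and 1.93 from 6 to 11. Its change of 1.70 ± 1.01 (adjusted p = 0.198) became -1.14 without sections 1 and 2. Lrp6 (at most 1.27, in section 6) and Axin2 (at most 1.07, in section 7) did not pass the filter and were not tested.

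At E5.25 Wnt7b was at 0, 0.66, 0 and 0 in sections 1 to 4 and at 2.98, 1.74 and 3.06 in sections 6, 7 and 8, without overlap. Trophoblast-side tissue was found in the same sections by markers, since the 10 extraembryonic ectoderm genes summed to at most 10.3 FPKM in sections 1 to 4 and to at least 146 FPKM in sections 6 to 8. Ctnnb1 was at 0, 0, 3.47 and 0 in sections 1 to 4 and at 4.19, 3.37 and 3.90 in sections 6 to 8. Section 3, with 4282 genes detected the richest of sections 1 to 4, was the only low-numbered section in which Ctnnb1 was above 0. Sections 1 to 4 detected 2046 to 4282 genes and sections 6 to 8 detected 5636 to 6461. The share of all genes without overlap between these groups was not counted, so the gap in Wnt7b has no background beside it.

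Fzd7 was at 0, 0, 3.26 and 1.14 in sections 1 to 4 and at 0.84, 0.24 and 2.60 in sections 6 to 8, so that both groups held high and low values. Lrp6 was at 0.71, 0, 1.92, 0, 1.14, 1.5 and 0.94, and Tcf7l1 at 0, 1.97, 1.26, 0.16, 2.41, 0.98 and 0.87, in the same order of sections. Axin2 reached an FPKM of 1 in section 7 alone (1.88) and was not tested. The E5.25 line called 0.406% of 7148 genes, 27 up and 2 down, although 2493 had an unadjusted p below 0.05, and limma called 0 of the 5 members tested, of which 2 had an unadjusted p below 0.05.

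The E5.25 fitted changes were 3.10 ± 1.20 (SE) for Wnt7b (95% confidence interval 0.63 to 5.58; limma, adjusted p = 0.0831) and 4.07 ± 1.58 for Ctnnb1 (0.80 to 7.34; adjusted p = 0.0841). Those of Fzd7 (1.02 ± 1.29), Lrp6 (0.64 ± 0.99) and Tcf7l1 (0.46 ± 1.16) were below the median of 1.45 over all genes. Under quantile normalisation these last values were -0.47, -1.06 and -0.90. Wnt7b reached an FPKM of 1 in sections 6, 7 and 8 alone, so it passed the filter only where it was high. Its direction is therefore not independent of the filter. The number of genes called at this stage ran from 3 without section 6 to 818 without section 4.

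**Figure D4:**
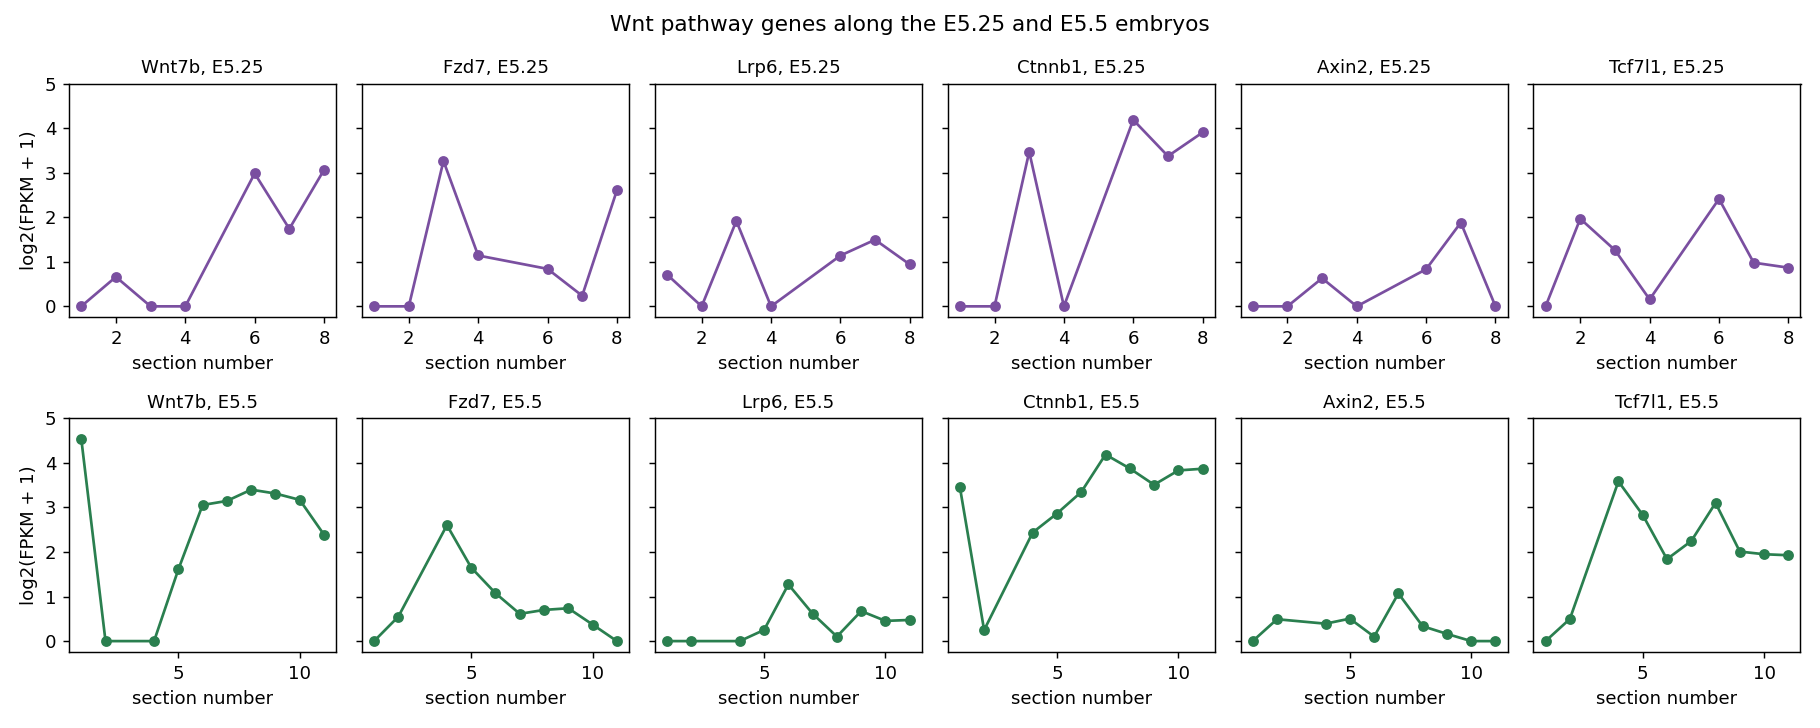
Level of each Wnt pathway gene, log2(FPKM + 1), by section number at E5.25 (upper row) and E5.5 (lower row), where columns 10 and 11 are drawn apart. Wnt7b reaches 1.74 to 3.06 in sections 6 to 8 at E5.25 and 2.39 to 3.40 from section 6 on at E5.5, where section 1 is at 4.55.

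A wider list of 90 Wnt pathway genes, with the members left out, placed them in context; 71 were in some table, and 45 were tested at E5.75. Between the E5.75 sides 5 were higher and 5 lower on the extraembryonic side, and 35 were not called, where 12.5% of all genes were called, 1163 higher and 234 lower. The median difference of the list was 0.23, beside 0.45 over all genes. Of the called genes, Wls, Wnt6, Cdx2, Fzd2, Sfrp1 and Sfrp2 passed the filter only through the side where they were higher, so their direction is not independent of it. Without the filter these kept their call, except Wnt6. That fit uses the same values, so it does not make their direction independent.

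Among ligands, Wnt6 was called with Wnt7b, 1 of 4 tested, where 12.5% of all genes were called. It was listed at 0 in sections 1 to 8 and in sections 16 to 19, and was at 3.11, 2.97, 3.05, 1.35 and 2.49 in sections 10, 11, 12, 14 and 15. It was thus limited to the extraembryonic sections next to the boundary in this table. Its difference was 1.44 ± 0.47 (SE; limma, adjusted p = 0.0472), and 18 of 23 alternatives ended the call, including no filter (adjusted p = 0.0620) and leaving out any of sections 1 to 8, 10 to 12, 14 or 15. Wls, the carrier that brings Wnt proteins to the cell surface, was higher on the extraembryonic side by 1.65 ± 0.40 (adjusted p = 0.00852), with values of at most 1.47 in sections 1 to 8 and of 0.70 to 3.19 after. The groups overlapped, and the call was lost under quantile normalisation and with the detection covariate (adjusted p up to 0.209).

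Of 8 receptors tested, 1 was higher on the extraembryonic side and 1 lower, where 12.5% of all genes were called. Ryk, a Wnt-binding tyrosine kinase-like receptor, was higher by 1.97 ± 0.53 (limma, adjusted p = 0.0172). Fzd2, another Frizzled, was lower, with a difference of -1.85 ± 0.45 (limma, adjusted p = 0.00852). Ryk had the highest mean of the role, 14.5 FPKM, and was at 3.98 to 5.26 in sections 10 to 19 and at 0 to 3.96 before. Fzd2 was at 0 in section 2 and at 0.61 to 4.03 in the other sections before the boundary, and after the boundary it was above 0 in section 11 only, at 0.12. Fzd2 therefore had its values on the same side as Fzd7. The Fzd2 call was kept in 23 of 23 alternatives, and the Ryk call was lost with the covariate (adjusted p = 0.376).

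Of 4 antagonists tested, 2 were called, both lower on the extraembryonic side, where 12.5% of all genes were called. Sfrp1 and Sfrp2 encode secreted Frizzled-related proteins, which bind Wnt ligands outside the cell. Sfrp1 was above 0 in 7 of the 8 sections 1 to 8, up to 2.45, and was listed at 0 in all 9 sections 10 to 19 (difference -1.30 ± 0.31; limma, adjusted p = 0.00743; kept in 23 of 23 alternatives). Sfrp2 was at 0.19 to 4.61 in sections 1 to 8 and was above 0 after the boundary in sections 17 and 19 only, at 0.20 and 0.82 (-2.02 ± 0.47; adjusted p = 0.00649). Its call was lost with the covariate (adjusted p = 0.109). Kremen1, a Dkk receptor with the highest mean of this role, was not called (1.34 ± 0.56; adjusted p = 0.116).

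None of the 13 cytoplasmic transducers tested by limma was called between the sides, where 12.5% of all genes were called. The most abundant was the kinase gene Csnk1a1 at a mean of 41.8 FPKM (0.76 ± 0.44, limma adjusted p = 0.253). None of the 3 genes tested for receptor turnover and R-spondins was called either, and Lgr4 led their levels (-0.37 ± 0.47; adjusted p = 0.612). In both roles 0 genes had an unadjusted p below 0.05. With the curve, 6 of the 13 transducers changed, and 21 of the 45 genes in all, where 31.6% of all genes were called.

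Of 9 nuclear partners tested, 3 were called, where 12.5% of all genes were called. Lef1, a TCF/LEF factor that is also a Wnt target, was at 1.52 to 6.28 in sections 1 to 8 and at 0 to 1.46 in sections 10 to 19, without overlap (-2.39 ± 0.53; limma, adjusted p = 0.00419). Among the Groucho co-repressors, Tle4 was lower on the extraembryonic side (-1.98 ± 0.39; adjusted p = 0.00147) and Tle3 higher (2.20 ± 0.45; adjusted p = 0.00204). Tle4 was at 3.35 to 4.71 before the boundary and at 0.91 to 3.02 after it. Tle3 was at 0 to 2.53 before and at 2.69 to 4.30 after, so that neither pair of groups overlapped. The share of all genes without overlap was not counted, so these gaps and that of Lef1 have no background beside them. Tle4 kept its call in 23 of 23 alternatives, while those of Lef1 and Tle3 were lost with the covariate (adjusted p = 0.0761 and 0.0517). Tcf7l2, with the highest mean of the role at 16.4 FPKM, was not called (-0.68 ± 0.57; adjusted p = 0.428).

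Of 4 targets tested, Lef1 and Cdx2 were called, where 12.5% of all genes were called. Cdx2, a caudal-type transcription factor and itself a trophoblast gene, was at 4.32, 4.49, 4.43, 2.82 and 2.73 in sections 10, 11, 12, 14 and 15, and at most 0.55 in every other section (2.06 ± 0.64; limma, adjusted p = 0.0358). Of 23 alternatives 14 ended the call, including leaving out section 1, 2, 3, 4, 7, 10, 11, 12, 14 or 15. Myc, the most abundant of the role at 14.9 FPKM, was not called between the sides (1.60 ± 0.62; adjusted p = 0.0891).

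**Figure D5:**
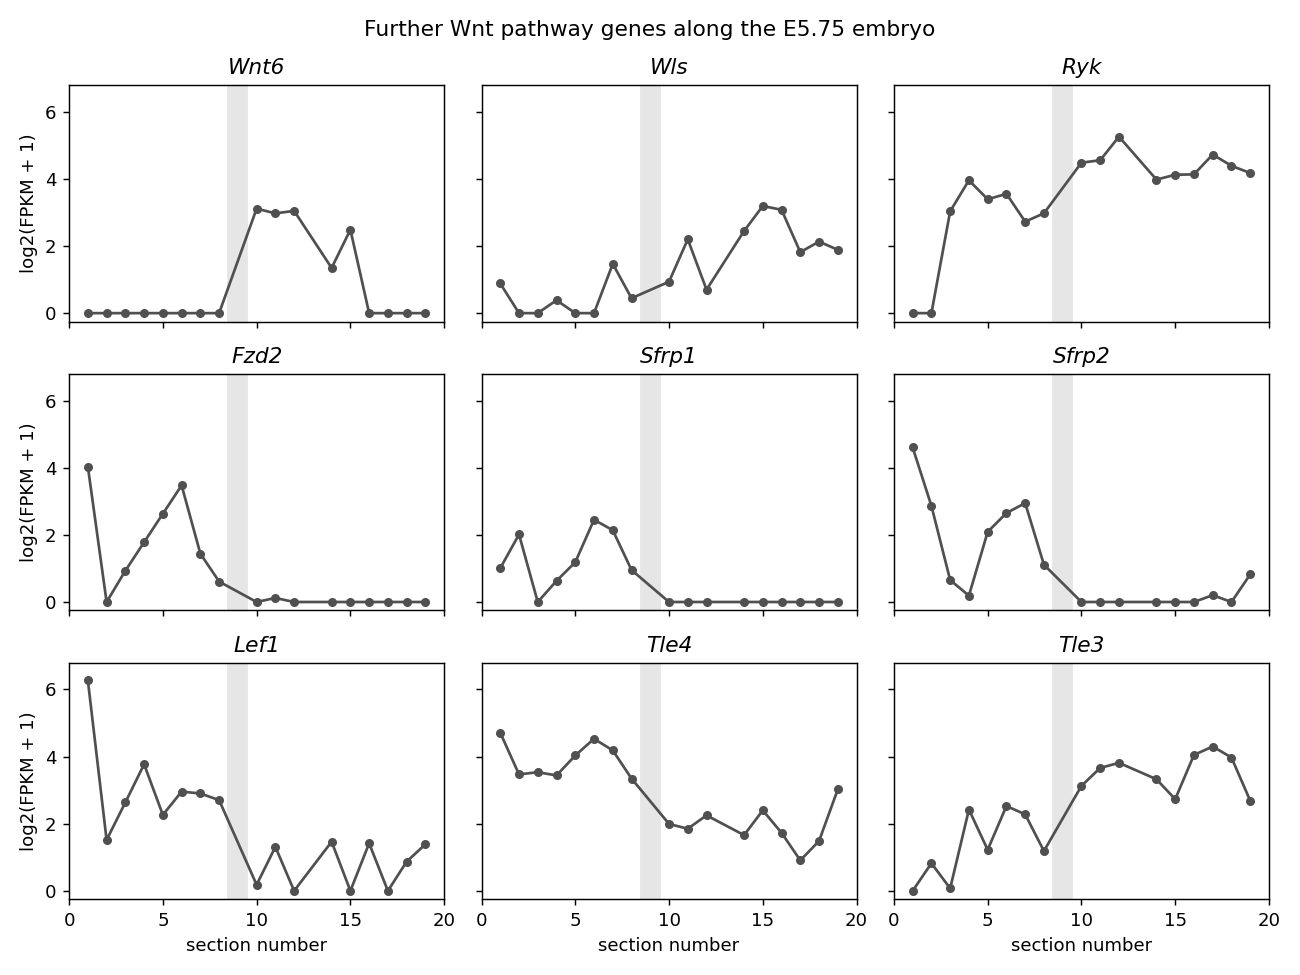
Levels of 9 genes of the wider Wnt list, log2(FPKM + 1), by E5.75 section, with the place of section 9, a sample without a column, in grey. Fzd2, Sfrp1, Sfrp2, Lef1 and Tle4 are higher before the band, Ryk, Wls and Tle3 after it, and Wnt6 is above 0 in sections 10 to 15 only.

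The straight line at E5.75 called 11 of the 45 genes of the wider list, where 21.0% of all genes were called, so that the share is near the background. Wls, Ryk, Tle3, Ctnnbip1 (an inhibitor of beta-catenin and TCF binding) and Myc rose, by 2.62, 3.18, 3.43, 2.61 and 3.29. Fzd2, Fzd5, Sfrp1, Sfrp2, Lef1 and Tle4 fell. Here too Wls, Fzd2, Sfrp1 and Sfrp2 passed the filter only through the side where they were higher. Their line calls were kept without the filter, in a fit to the same values. The Fzd5 call was lost when section 1, 2, 14, 16, 17 or 18 was left out, and that of Sfrp1 without section 2, 17 or 18. Without both sections 1 and 2, the calls of Ryk, Myc, Sfrp1 and Sfrp2 were lost. The detection covariate ended all of these calls except that of Wls, with adjusted p from 0.0631 (Fzd2) to 0.918 (Fzd5, whose slope of -1.82 became -0.27). Quantile normalisation ended those of Wls and Ctnnbip1 (adjusted p = 0.255 and 0.225). The Fzd5 call was also lost with no filter and with a pseudocount of 0.1, and the Sfrp1 call with a pseudocount of 5. The median of the list was 0.29, beside 0.80 over all genes.

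At E5.5, 5 of the 30 genes tested rose and 2 fell, where 30.9% of all genes were called, with a median of 0.75 beside 1.22 over all genes. Ryk rose by 3.67 ± 0.80 (SE; limma, adjusted p = 0.00379): it was listed at 0 in sections 1 and 2, was at 0.88 and 0.91 in sections 4 and 5, and between 2.84 and 3.13 from section 6 on. Csnk1d, a casein kinase gene, rose by 2.54 ± 0.71 (adjusted p = 0.0138). Ctnnbip1, Wls and Myc also rose, with adjusted p from 0.0251 to 0.0476. Quantile normalisation, the detection covariate and leaving out both sections 1 and 2 each ended these 5 calls. Leaving out section 1, or the filter, ended those of Ctnnbip1, Wls and Myc, as did leaving out section 2 or 8 for Wls, section 9 or 10 for Ctnnbip1, and section 2, 4, 7, 9 or 10 for Myc, and a pseudocount of 5 for Wls and Myc. Fzd5 and Sfrp1 fell. Like Ryk, they passed the filter only through the sections where they were higher, so their direction is not independent of it. Without the filter Ryk, Fzd5 and Sfrp1 kept their call. Fzd5 and Sfrp1 passed the filter through sections 1 and 2 alone. When section 1, section 2 or both were left out, these 2 genes were not tested. Fzd5 was at 2.56 and 1.95 in sections 1 and 2 and at most 0.76 after (-2.32 ± 0.63; adjusted p = 0.0121), and with the detection covariate its change was -0.19 (adjusted p = 0.988). Sfrp1 reached 6.38 in section 1, 2.11 in section 2 and at most 0.59 after (-4.55 ± 1.18; adjusted p = 0.00939). The values in section 1 come from the library described above, and with the detection covariate the fitted change of Sfrp1 was 1.60. At E5.25 limma called 0 of 27 genes of the list, and 11 had an unadjusted p below 0.05. In the VE libraries 16 of 27 were lower, with a median of -1.86 beside -2.09 over all genes, of which 57.2% were called. A gene below an FPKM of 1 in both VE libraries entered that test only through the other libraries, where it was higher. The count of 16 is therefore given as a number and supports nothing.

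The genes whose E5.75 pattern was most like that of each member were found by Pearson correlation over the 17 sections, among about 3950 genes with a mean FPKM of at least 5. For Wnt7b they included Fgfr2 (r = 0.987), an FGF receptor of trophoblast, and Fabp3 (0.972). Fgfr2 was at most 0.44 in sections 1 to 8 and at 3.44 to 4.50 after, which is the same division as that of Wnt7b. For Fzd7 they were Ptma (0.899), Pmaip1 (0.898) and Kdm5b (0.891). For Ctnnb1 they were Sap18 (0.963), Ube2d2a (0.948) and Snhg1Snord22 (0.942), which fell to 0.885, 0.820 and 0.748 without sections 1 and 2. For Tcf7l1 they were Chchd6 (0.872), Larp1 (0.821) and Sec22b (0.809). For Lrp6 they were Lsm6 (0.819), Otud4 (0.804) and Idi1 (0.80). For Axin2 the highest were Apc (0.645), Gsk3b (0.624) and Mapk3 (0.608), the lowest of the 6 sets. All genes of a section share its library and its detection, and no test was made of these correlations.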

How the data were processed

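The authors deposited 1 table per stage, in which expression is given as FPKM on a log2 scale; their minimum of 0 fits log2(FPKM + 1), which is how they were read here. Per the submitters' processing notes, build mm10 was used with Cufflinks 2.0.2 and TopHat2 2.0.4, with no role given; annotation and normalisation are not given in the sources used here. Without counts in the tables, the sequencing depth and its precision are unknown. The E5.5 columns numbered 10 and 11 were averaged as section 10, since the labels conflict on the second.

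Each table was fitted alone with limma 3.58.1 in R 4.3.3 (2-sided, moderated with an intensity trend) on the genes that reached an FPKM of 1 in 2 or more fitted samples. The p-values were adjusted by Benjamini-Hochberg over all those genes and called at 0.05. The fits were a line along the sections (scaled so that its slope is the change from the lowest to the highest number), a natural spline with 3 degrees of freedom, the E5.75 difference between sections 10 to 19 and 1 to 8, and VE against the other libraries of sections 6 and 7. A change is thus a fitted difference on the log2(FPKM + 1) scale, which understates that of low genes. The scripts were tested on simulated data. The 2 VE libraries and the others of the same section number were not paired in the main fit, and a block on section number is among the alternatives. The correlation of their deviations was 0.000773 over 6413 genes. It rests on 2 libraries of each kind and cannot show that pairing is absent.

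The members, the gene lists and the boundary between sections 8 and 10 were chosen with earlier results of these data known. Named beyond the members were, in each role of the wider list, up to 3 called genes with the smallest p per comparison and the gene with the highest mean FPKM, and for each member the 3 genes most like it, 1 of which is not reported here. Alternatives were pseudocounts of 0.1 and 5, no filter, quantile normalisation, a covariate for genes detected, a replicate block in VE, and other choices of sections. Plots were made in Python 3.11.15 (matplotlib 3.10.9).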

Additional observations from a re-analysis of the deposited data

How the results depend on the processing

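The tables give no depth, a gene at 0 may be undetected, detection differs between sections, and each stage may be 1 embryo. Members kept their direction and their side of the threshold under the alternatives except as follows and where calls gained or lost are given above. With a pseudocount of 0.1, 1006 genes were called at E5.25, Fzd7 at E5.5 was 0.25, 2 members were called in VE, and the curve of Lrp6 at E5.75 was called (adjusted p = 0.0214). With a pseudocount of 5, 0 genes were called at E5.25 and the Lrp6 difference between the E5.75 sides was -0.0099. Without the filter, 0 genes were called at E5.25 and 96 along sections 10 to 19. Quantile normalisation called 0 genes at E5.25, 1087 at E5.5, 1336 along E5.75 and 0 in VE, with 2 members along E5.75 and 0 in VE. It turned the sign of Fzd7, Lrp6 and Tcf7l1 at E5.25 (-0.47, -1.06 and -0.90), of Lrp6 along E5.75 (-0.89), of Lrp6 and Tcf7l1 between the sides (-0.65 and -0.24) and in VE (0.23 and 0.95), and of Axin2 and Tcf7l1 along sections 1 to 8 (-0.36 and -0.42). The detection covariate called 0 genes at E5.25, 0 at E5.5, 624 along E5.75 (2 members), 531 with the curve (1 member) and 658 between the sides. It turned Lrp6 and Tcf7l1 at E5.25 (-0.77 and -1.77), Tcf7l1 and Sfrp1 at E5.5 (-0.27 and 1.60), Lrp6 and Ctnnb1 along E5.75 (-0.95 and -0.70), Lrp6, Ctnnb1 and Tcf7l1 between the sides (-0.58, -0.39 and -0.016), and Ctnnb1 and Tcf7l1 along sections 1 to 8 (-0.53 and -0.44). Without the sections of low detection, 0 genes were called at E5.25 with Tcf7l1 at -0.66, 309 at E5.5 with Tcf7l1 at -1.14, 1407 along E5.75 (2 members) with Lrp6 at -0.31, and 1516 with the curve; Lrp6 between the sides was -0.27, and 1 gene was called along sections 1 to 8. The cause of these shifts was not tested.

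With section number as a replicate block, 2 members (Fzd7 and Lrp6) and 3800 genes were called in VE; both passed the filter through the other libraries alone, so counts of members in VE support nothing. The block changed no other call of a member. Leaving out 1 section at a time gave 3 to 818 genes at E5.25, with Tcf7l1 from -0.34 to 1.05. At E5.5 it gave 0 to 2 members, with Fzd7 from -1.14 to 0.16. Along E5.75 it gave 1 to 2 members, and between the sides Lrp6 ran from -0.072 to 0.29. Along sections 1 to 8 it gave 0 to 453 genes and 0 to 1 members, and along sections 10 to 19 it gave 37 (without section 18) to 229 genes (without section 15), with Ctnnb1 from -0.49 to 0.22. In VE it gave 2 genes without the other library of section 6 to 5624 without the VE library of section 7, and 0 to 4 members, with 4 when the VE library of section 6 was left out. There the lone library was assumed to vary like the others.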

Other observations

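Along the extraembryonic sections of E5.75, 10 to 19, 3 of the 37 genes of the wider Wnt list that were tested were called, all lower in the later sections, in the line added after the values had been seen; over all genes 1.67% were called, 113 up and 53 down. Cdx2, a caudal-type transcription factor of trophoblast stem cells, fell by 5.42 on the log2 scale (SE 0.83; limma, Benjamini-Hochberg adjusted p = 0.00569). Its call was kept in each of 14 alternatives. T, the primitive streak transcription factor brachyury and a known Wnt target, was at 3.62, 2.90 and 2.64 in sections 10, 11 and 12 and at 0 in sections 14 to 19, and at 0.81 in section 6 among the embryonic sections. Its fitted change along sections 10 to 19 was -3.89 (SE 0.81; adjusted p = 0.0249), and that of Wnt6 was -3.78 (SE 0.80; adjusted p = 0.0251). These genes and Cdx2 passed the filter only through the lower-numbered sections, where they were high, and without the filter neither T nor Wnt6 was called (adjusted p = 0.0600 for T and 0.0609 for Wnt6). Their calls were also lost when section 10, 11, 12, 17, 18 or 19 was left out, and that of T with a pseudocount of 0.1. Wnt7b, in contrast, was at 3.21 or more in all of these sections, and the difference between its line and those of Wnt6, T and Cdx2 was not tested. Among the sections next to the boundary, section 10 had 8 of 10 epiblast genes above 0, and Pou5f1 was at 3.70 there, 0 in section 11 and 2.66 in section 12. The part of epiblast tissue in the values of T was not tested.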
